A study of Mus musculus with 15 samples.

Results

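Lars2, Rnf225, Fnbp1, Gas7 and Tmem38b were the 5 genes that held at least 16 crosslinked cDNAs of wild-type TTP in their 3′UTR after 1 h of LPS and fewer cDNAs of the TTP-AA mutant. They were 5 of the 4835 genes with at least 1 3′UTR cDNA in any of the 6 crosslink lists, and their 160 crosslinked positions were 160 of 69221 such positions. The lists came from iCLIP, in which a protein is crosslinked to RNA with UV light, pulled down, and its contact nucleotide read from the place where reverse transcription stopped. A cDNA is 1 distinct reverse transcript, told apart from PCR copies by a random barcode. GFP–TTP or GFP–TTP-AA was pulled down through its GFP tag. All cells were bone marrow-derived macrophages of C57BL/6 mice that lacked endogenous TTP, had been immortalized with the oncogenes hcmyc and hRasG12V, and carried a vector that expressed the tagged protein upon doxycycline. Both proteins were induced with doxycycline for 6 h and the cells received LPS for 0, 1 or 4 h. The level of the tagged protein was therefore set by the vector and doxycycline, in an immortalized line.

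Each list summed the libraries of its group. The 0 h lists pooled 2 libraries each, the 1 h lists 4 for TTP and 3 for TTP-AA, and the 4 h lists 2 each, so no value has a replicate error. Every interval is a 95% interval that covers counting error only, and every test compares a pair of pooled lists, not conditions. The lists summed to 33587 cDNAs (TTP) versus 32617 (TTP-AA) at 0 h, 99263 versus 174397 at 1 h, and 29060 versus 19167 at 4 h. The share of cDNAs in 3′UTRs was 13.0% versus 18.4% at 0 h, 9.63% versus 53.6% at 1 h and 3.12% versus 5.22% at 4 h. The locus on chromosome 17 that carries Gm26917 and Gm42418, thought to carry ribosomal RNA sequence, took 14.7% and 11.2% of the cDNAs at 0 h, 28.5% versus 10.4% at 1 h, and 32.0% versus 13.0% at 4 h. The lists hold crosslinks and not RNA levels, so the macrophage label was not checked against marker genes, and more binding per molecule and more molecules of an RNA cannot be told apart.

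TTP (tristetraprolin, Zfp36) is a zinc finger protein that binds AU-rich elements, runs of overlapping AUUUA pentamers in the 3′UTR of cytokine mRNAs such as Tnf, and recruits the machinery that removes the poly(A) tail. The kinase MK2, active after LPS, phosphorylates TTP and keeps it from silencing these mRNAs. In TTP-AA the phosphorylated serines are alanines, and the protein stays active. Lars2 encodes the leucyl-tRNA synthetase of mitochondria. Fnbp1 and Gas7 encode F-BAR proteins, which bend membranes and link them to actin. Tmem38b encodes TRIC-B, a cation channel of the endoplasmic reticulum. Rnf225 encodes a RING finger protein.

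The sites below are the strongest sites of Lars2 that lie more than 30 nt apart, the strongest site of Rnf225, and the wild-type site of Tmem38b. Lars2 nt 194, which lies beside nt 198, had 42 cDNAs over the 6 lists and is covered by the window of nt 198. The sites are shown because none held the AUUUA pentamer. Each is 30 nt of the spliced transcript written as DNA, 5′ to 3′, with the crosslinked base in capitals, and coordinates are those of GRCm38 (mm10).
Lars2 nt 120 (chr9:123461788-123461817, plus strand): gtcagcaggaGgcctaaggcgagctcaggg
Lars2 nt 198 (chr9:123461866-123461895, plus strand): tgattttcagTaggaatacagaccgtgaaa
Lars2 nt 281 (chr9:123461949-123461978, plus strand): aaagttaccaCagggataactggcttgtgg
Lars2 nt 469 (chr9:123462137-123462166, plus strand): gatgatgtgtTgttgccatggtaatcctgc
Rnf225 nt 1902 (chr7:12930786-12930815, plus strand): gcagcacgtaTactaaaattggaacgatac
Tmem38b nt 635 (chr4:53860725-53860754, plus strand): agtacttggaTgggagaccgcctgggaata
Positions in nt are counted from the first base after the stop codon. Sites of Tmem38b and Gas7 with AUUUA are shown next, beside the Tnf position with the most TTP cDNAs at 1 h, with the pentamer in capitals.
Tmem38b nt 428 (chr4:53860518-53860547, plus strand): cgattcctATTTAattttgaacatggagaa
Gas7 nt 3942 (chr11:67687383-67687412, plus strand): agttctgtaATTTAttgaacattggccctt
Tnf nt 485 (chr17:35199641-35199670, minus strand): tgaatgtATTTAtttggaaggccggggtgt

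All crosslinks used here lay on the sense strand, and the 5 genes had no antisense cDNA in any list. Lars2 (ENSMUSG00000035202.8, 3′UTR chr9:123461679-123462664, 986 nt in its last exon) had 71 3′UTR cDNAs with TTP and 37 with TTP-AA at 0 h, 291 versus 223 at 1 h, and 197 versus 74 at 4 h. Rnf225 (ENSMUSG00000033967.4, 3′UTR chr7:12928895-12931072, 2178 nt) had 61 and 45, 90 and 48, and 28 and 8. Both genes had more TTP than TTP-AA cDNAs at every time. Tmem38b (ENSMUSG00000028420.13, 3′UTR chr4:53860101-53862019, 1919 nt) had 8 versus 0 at 0 h, 16 versus 10 at 1 h, and 7 versus 0 at 4 h. Fnbp1 (ENSMUSG00000075415.13, 3′UTR chr2:31026206-31033009, 6804 nt) had 35 cDNAs with TTP and 24 with TTP-AA at 1 h and 0 in the other 4 lists. Gas7 (ENSMUSG00000033066.15, 3′UTR chr11:67683452-67688990, 5539 nt) had 16 versus 9 at 1 h, 3 TTP-AA cDNAs at 0 h, and 0 in the other 3 lists. Fnbp1 and Gas7 were thus seen in 3′UTRs almost only at 1 h, when both lists were deepest. At these depths, 0 cDNAs leave room for at most 0.00893% of the list with TTP at 0 h, and 0.0103% at 4 h. This limit covers only positions that passed the authors' false discovery rate filter, since cDNAs at other positions are not in the lists. Outside the 3′UTR, Fnbp1 had 3 intronic cDNAs in each 0 h list, 4 in the TTP list at 1 h, and 2 5′UTR cDNAs in the TTP-AA list at 1 h. Lars2 had 2 intronic cDNAs (TTP-AA, 1 h) and Gas7 had 2 (TTP, 0 h).

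**Figure D1:**
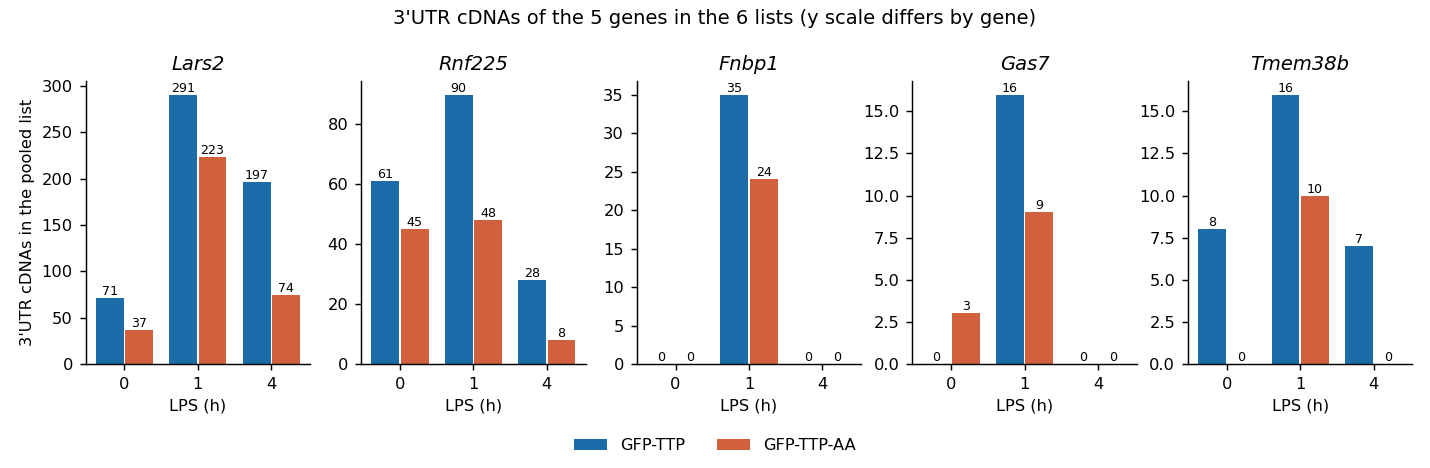
Bars give the 3′UTR cDNAs of each gene in the pooled lists of GFP–TTP (blue) and GFP–TTP-AA (orange) at 0, 1 and 4 h of LPS, each panel with its own y axis from 0. The blue bar is the taller one in every pair with cDNAs except Gas7 at 0 h, where the counts were 0 and 3.

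The 1 h counts chose the genes, so they are a description without a test. The ratio of TTP-AA to TTP cDNAs was 0.766 for Lars2 (0.641 to 0.916), 0.533 for Rnf225 (0.368 to 0.765), 0.686 for Fnbp1 (0.390 to 1.19), 0.562 for Gas7 (0.219 to 1.35) and 0.625 for Tmem38b (0.254 to 1.46). Over all 3′UTRs the same ratio was 9.78. Scaled to the size of the lists, the ratios were 0.436 for Lars2, 0.304 for Rnf225, 0.390 for Fnbp1, 0.320 for Gas7 and 0.356 for Tmem38b, and without the chromosome 17 locus they lay between 0.242 for Rnf225 and 0.348 for Lars2. The intervals of Fnbp1, Gas7 and Tmem38b included equal counts. Of the 78 genes with at least 16 TTP cDNAs, these 5 (6.41%) had fewer in the TTP-AA list, and nothing is read from that share. Just inside the threshold were Tmem38b with 16 and 10 cDNAs and Gas7 with 16 and 9. Just outside were Atf1 with 12 TTP and 4 TTP-AA cDNAs, Abcg1 with 11 and 9, and Ubfd1 with 9 and 6. When each crosslinked position was counted once, only 2 of the 5 leaned to TTP at 1 h: Lars2 had 70 TTP and 56 TTP-AA positions and Gas7 had 16 and 8, while Rnf225 had 10 and 12, Fnbp1 5 and 6, and Tmem38b 7 and 7.

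**Figure D2:**
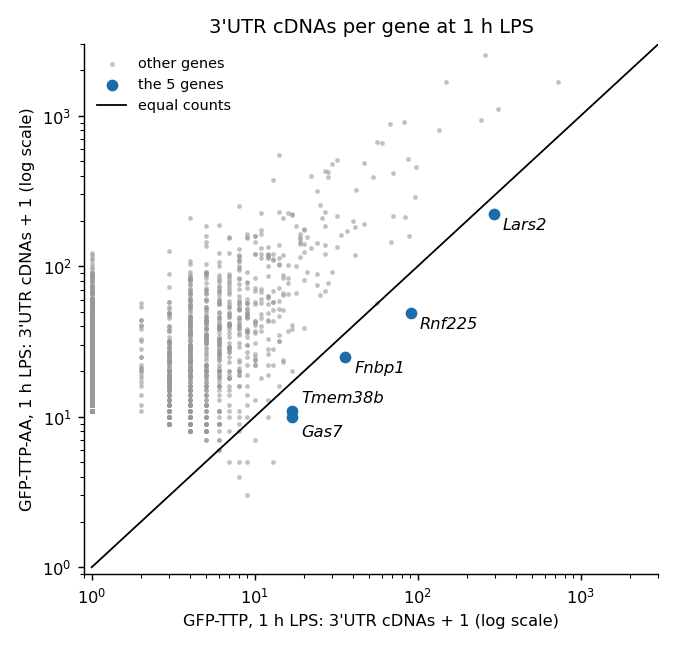
Each point is a gene with at least 10 3′UTR cDNAs over both 1 h lists; axes give cDNAs plus 1 in the TTP (x) and TTP-AA (y) lists on log scales, and the line marks equal counts. The 5 genes lie under the line, from Lars2 with 291 and 223 cDNAs down to Gas7 with 16 and 9.

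The 0 h and 4 h lists took no part in the choice. Lars2 and Rnf225 had enough cDNAs there to be tested, and both had a larger share of the 3′UTR cDNAs in the TTP list at both times. At 0 h, Lars2 held 1.63% of the TTP and 0.616% of the TTP-AA 3′UTR cDNAs, an odds ratio of 0.375 (0.252 to 0.559, adjusted p 2.03e-05 by Fisher's exact test). Rnf225 held 1.40% and 0.749%, an odds ratio of 0.533 (0.362 to 0.785, adjusted p 0.00907 by Fisher's exact test). These 2 genes stand beside 32 of 241 genes tested (13.3%) with a called larger share in the TTP list at 0 h. At 4 h, Lars2 held 21.7% of the TTP and 7.40% of the TTP-AA 3′UTR cDNAs, an odds ratio of 0.288 (0.216 to 0.382, adjusted p 4.28e-18 by Fisher's exact test). Rnf225 held 3.09% and 0.80%, an odds ratio of 0.253 (0.115 to 0.558, adjusted p 7.78e-04 by Fisher's exact test). There the same call was made for 8 of 25 genes tested (32%). A larger share in the TTP-AA list was called for 42 genes at 0 h and 9 at 4 h. The odds ratio did not differ detectably between 4 h and 0 h, by a factor of 0.767 for Lars2 (0.470 to 1.25) and 0.474 for Rnf225 (0.197 to 1.14). Tmem38b was too shallow for the test. Its TTP cDNAs were 2.67 times a floor of 3 counts, set for the TTP-AA count of 0, at 0 h and 2.33 times at 4 h. With counting error on both sides, the interval of the TTP-AA to TTP ratio reached up to 0.586 at 0 h and 0.694 at 4 h. These values are not scaled to list size. Lars2 kept its call against all cDNAs of the list, with weaker odds ratios. They were 0.536 at 0 h (adjusted p 0.00805) and 0.568 at 4 h (adjusted p 6.59e-05, both by Fisher's exact test). For Rnf225 the call itself depended on the denominator. Against all cDNAs of the list rather than those in 3′UTRs, its odds ratio at 0 h was 0.759 with an adjusted p of 0.349 (Fisher's exact test), and at 4 h it was 0.433 with an adjusted p of 0.0618. With each site counted once, neither gene was called between the proteins at either time.

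Lars2 took a larger part of the 3′UTR cDNAs at 4 h than at 0 h with both proteins. At 1 h its share was 3.04% with TTP and 0.238% with TTP-AA. As a part of the TTP-AA 3′UTR cDNAs it was thus lowest at 1 h, when those made up 53.6% of the list. Between 0 h and 4 h its share rose from 1.63% to 21.7% in the TTP lists, an odds ratio of 16.8 (12.7 to 22.3, adjusted p 1.88e-96 by Fisher's exact test). In the TTP-AA lists it rose from 0.616% to 7.40%, an odds ratio of 12.9 (8.64 to 19.3, adjusted p 3.77e-35 by Fisher's exact test). In all cDNAs of the list, Lars2 with TTP was 0.211% (0.168 to 0.267) at 0 h, 0.293% (0.261 to 0.329) at 1 h and 0.678% (0.590 to 0.779) at 4 h. With TTP-AA it was 0.113% (0.0823 to 0.156) at 0 h, 0.128% (0.112 to 0.146) at 1 h and 0.386% (0.308 to 0.484) at 4 h. By this measure the TTP-AA share was not lowest at 1 h. Rnf225 rose in the TTP lists by an odds ratio of 2.25 (1.43 to 3.54, adjusted p 0.00619 by Fisher's exact test), but as a share of all cDNAs of the list it was lower at 4 h, with an odds ratio of 0.530 (adjusted p 0.00789, Fisher's exact test). In the TTP-AA lists Rnf225 had an odds ratio of 1.07 (0.502 to 2.27, adjusted p 0.867 by Fisher's exact test), and 0.302 as a share of all cDNAs (adjusted p 0.00156). Tmem38b rose in the TTP lists, from 8 to 7 cDNAs in a smaller total, by an odds ratio of 4.24 (1.54 to 11.7, adjusted p 0.0376 by Fisher's exact test). With genes of at least 5 cDNAs tested instead of 10, its adjusted p was 0.0787 (Fisher's exact test), and against all cDNAs of the list its odds ratio was 1.01 (adjusted p 1). A larger share at 4 h was called for 16 of 102 genes in the TTP lists (15.7%) and for 12 of 149 in the TTP-AA lists (8.05%). Together the 5 genes held 3.20% and 1.41% of the 3′UTR cDNAs at 0 h, 4.69% versus 0.336% at 1 h, and 25.6% versus 8.20% at 4 h. The chromosome 17 locus was likewise larger in the TTP list at every time and rose from 14.7% to 32.0% of the TTP cDNAs by 4 h, and its part in these results was not tested.

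Within the Lars2 3′UTR the crosslinks fell into 4 groups, all in the first 492 of 986 nt, and the strongest position changed with time. At 0 h, nt 119 to 120 held 16 of 71 TTP cDNAs and none of 37 TTP-AA cDNAs. At 1 h this pair held 80 of 291 TTP cDNAs (27.5%, 22.7 to 32.9) and 96 of 223 TTP-AA cDNAs (43.0%, 36.7 to 49.6). At 4 h it held 0 of 197 and 0 of 74. Nt 119 to 120 was therefore high at 1 h in both lists. By cDNA number its TTP-AA to TTP ratio was 1.20 (0.883 to 1.64), an interval that included equal counts. All other Lars2 positions together had 211 TTP and 127 TTP-AA cDNAs, a ratio of 0.602 (0.479 to 0.754). These ratios are not scaled to list size, and both lay under the ratio of the list totals (174397 TTP-AA and 99263 TTP cDNAs). The group at nt 162 to 308 held 45 cDNAs with TTP and 27 with TTP-AA at 0 h, 170 versus 83 at 1 h, and 172 versus 62 at 4 h. Inside it, nt 194 and nt 198 together held 59 cDNAs with TTP and 21 with TTP-AA at 1 h and none in either 4 h list. Nt 281 went the other way. It held 6 cDNAs with TTP and 5 with TTP-AA at 0 h, 3 versus 1 at 1 h, and 98 versus 31 at 4 h, which was 49.7% (42.8 to 56.7) of the TTP and 41.9% (31.3 to 53.3) of the TTP-AA cDNAs of Lars2 at 4 h. The group at nt 464 to 492 held 10 and 10 cDNAs at 0 h, 38 versus 33 at 1 h, and 25 versus 12 at 4 h. Its part was 12.7% to 14.1% of the Lars2 cDNAs in the TTP lists, and with TTP-AA it was 10 of 37 cDNAs at 0 h, against 14.8% at 1 h and 16.2% at 4 h. A last group at nt 399 to 421 held 3 cDNAs with TTP and 11 with TTP-AA at 1 h and none at other times. These positions were picked from their values, and the shares are a description.

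**Figure D3:**
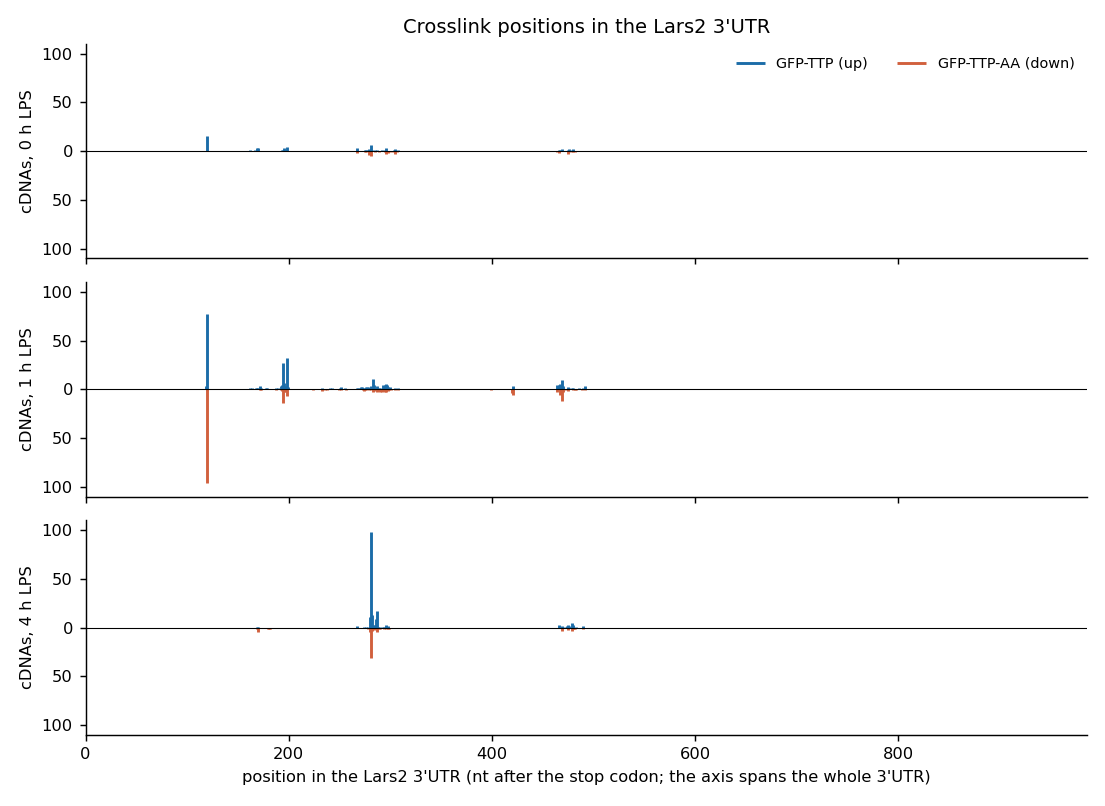
Vertical lines give the cDNAs at each position of the Lars2 3′UTR in nt after the stop codon, for 0, 1 and 4 h of LPS from top to bottom, GFP–TTP upward in blue and GFP–TTP-AA downward in orange. The tallest line stands at nt 120 at 1 h (77 and 96 cDNAs) and at nt 281 at 4 h (98 and 31).

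As background, part of the mouse Lars2 3′UTR is known to resemble 28S ribosomal RNA. No 28S sequence was used here, so that resemblance was not measured. Among the annotated transcripts, no small RNA gene and neither chromosome 17 transcript aligned to the Lars2 3′UTR. A stretch at nt 255 to 441 aligned to AA474408, a transcript on chromosome 7 of unsettled class, at 80.1% identity over 196 columns, and nt 370 to 441 aligned to Gm15564 on chromosome 16 at 98.6% over 72 columns. AA474408 had 32 cDNAs with TTP and 7 with TTP-AA at 0 h, 13 versus 13 at 1 h, and 107 versus 11 at 4 h. As a share of all cDNAs of the list it was highest with TTP at 4 h (0.368%), as was Lars2 (0.678%).

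The crosslinks of Rnf225 and most of those of Tmem38b lay inside annotated small RNA genes that sit within their 3′UTRs on the same strand. All 280 Rnf225 cDNAs of the 6 lists fell in nt 1899 to 1917, inside the snRNA gene Gm26325, which spans nt 1880 to 1986 (chr7:12930774-12930880). In Tmem38b, 32 of 41 cDNAs (78.0%, 63.3 to 88.0) fell in nt 631 to 646, inside the 5S rRNA gene n-R5s185, which spans nt 552 to 670 (chr4:53860652-53860770). Over all other 3′UTRs, 38 of 114050 cDNAs (0.0333%, 0.0243 to 0.0457) lay in such a gene. At 1 h, 106 of 9558 TTP 3′UTR cDNAs did, and these were the 90 of Rnf225 and the 16 of Tmem38b. Because a site was given to the 3′UTR before any non-coding exon, the annotation cannot say whether these cDNAs came from the mRNA or from the small RNA. Without sites in annotated small RNA genes, Rnf225 had no cDNA, Tmem38b had 0 cDNAs with TTP and 9 with TTP-AA at 1 h, and 3 of the 5 genes still leaned to TTP.

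The Rnf225 stretch belongs to the U6 type of spliceosomal RNA and has many copies in the genome. The 30 nt that follow nt 1902 stood unchanged in 0 other annotated transcripts, and the best small RNA elsewhere matched 29 of the 30. Other annotated copies numbered 491, of which 90 held cDNAs. The crosslinks of Rnf225 and of these copies peaked at the same base. Position 23 of the small RNA held 63 of 90 TTP and 25 of 48 TTP-AA cDNAs of Rnf225 at 1 h, and 1015 of 1601 and 421 of 970 cDNAs of the other copies. Position 23 led the Rnf225 cDNAs in all 6 lists and the copies in 5, the exception being TTP-AA at 4 h, where the copies had 58 cDNAs at position 68 and 25 at position 23. The summed copies held 1671 cDNAs with TTP and 727 with TTP-AA at 0 h, 1601 versus 970 at 1 h, and 186 versus 299 at 4 h. At 4 h the copies thus had more TTP-AA than TTP cDNAs, whereas Rnf225 had 28 and 8.

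The wild-type site of Tmem38b at nt 635 is position 84 of the 5S rRNA gene. The 30 nt that follow it stood unchanged in 45 other annotated transcripts, so reads there match many places, and how the mapping treated such reads is not given in the sources used here. Other 5S copies numbered 140, of which 25 held cDNAs, 139 TTP and 95 TTP-AA at 0 h, 641 versus 285 at 1 h, and 203 versus 68 at 4 h. They had more TTP cDNAs at every time, as Tmem38b had at this stretch, with 8 and 0, 16 and 1, and 7 and 0. At 1 h, position 84 held 10 of the 16 TTP cDNAs of Tmem38b and 65 of the 641 of the copies, while the strongest base of the copies was position 31 with 132. Depth of snRNA and 5S rRNA genes moved between the lists, and its part in the Rnf225 and Tmem38b counts was not tested.

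**Figure D4:**
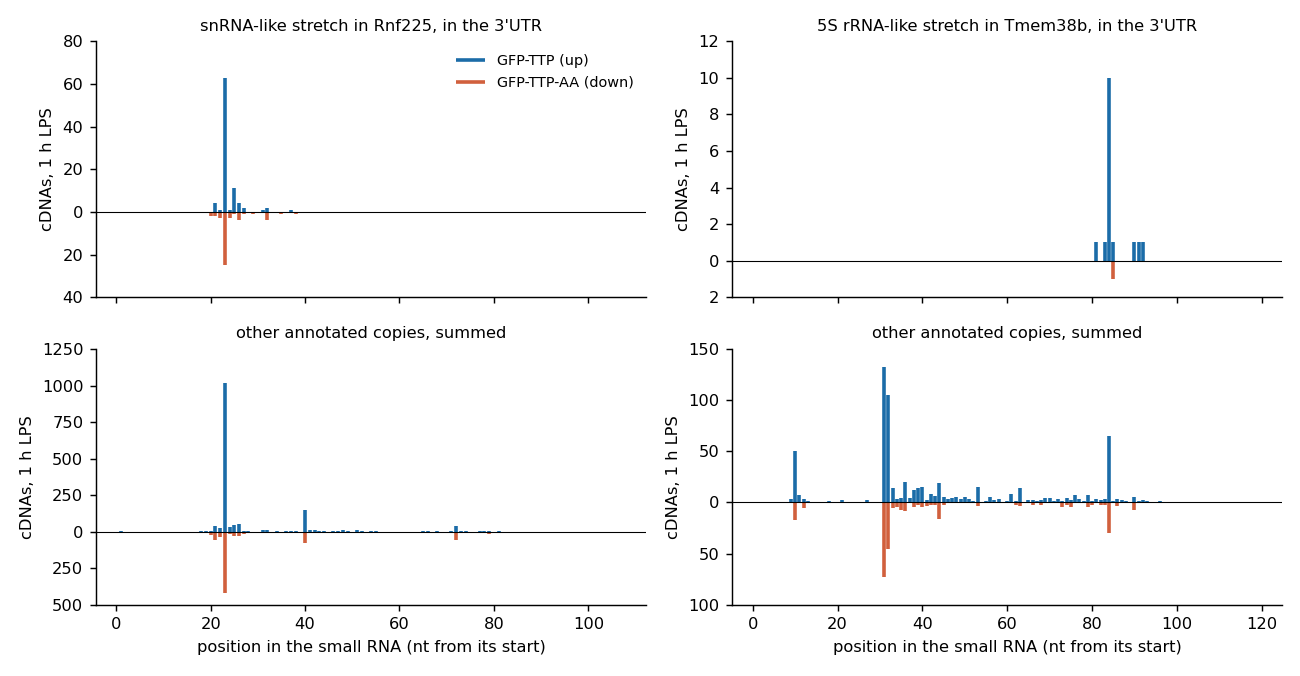
Lines give cDNAs at 1 h of LPS by position in the small RNA, for the snRNA stretch of Rnf225 (left) and the 5S rRNA stretch of Tmem38b (right), in the 3′UTR (top) and summed over the other annotated copies (bottom), GFP–TTP upward and GFP–TTP-AA downward. Rnf225 and the copies both peak at position 23 (63 and 1015 TTP cDNAs), and Tmem38b peaks at position 84, where the copies have 65.

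By the fixed measure, in which the 30 nt after a site share at least 20 nt at 90% identity with an annotated small RNA elsewhere in the genome, all 280 cDNAs of Rnf225, 32 of 41 of Tmem38b, 8 of 59 of Fnbp1, 2 of 28 of Gas7 and 0 of 893 of Lars2 qualified. Over all other 3′UTRs 5.98% (5.84 to 6.11) of cDNAs did. By this measure the 5 genes did not share 1 kind of site. It could not test the known resemblance of Lars2 to ribosomal RNA, since that sequence was not used here. Rnf225 and Tmem38b stood far above the other 3′UTRs, and Fnbp1 (13.6%, 7.03 to 24.5) and Gas7 (7.14%, 1.98 to 22.6) had wide intervals that began close to or under that level. The Fnbp1 sites that qualified, 6 of its 8 positions, lay at nt 6590 to 6600 and matched annotated miRNA genes, in a stretch that also aligned to transcripts of many other genes.

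Fnbp1 and Gas7 differed from each other in the shape of their sites. In Fnbp1 a single base held 31 of 35 cDNAs with TTP and 19 of 24 with TTP-AA at 1 h, and no annotated transcript aligned there. Among the 84 genes with at least 15 TTP 3′UTR cDNAs at 1 h, the strongest position held a median of 11.1% of a gene's cDNAs. It held 88.6% in Fnbp1, which no gene exceeded, 70.0% in Rnf225, 62.5% in Tmem38b and 26.5% in Lars2. In Gas7 it held 6.25%, since all 16 TTP cDNAs lay at 16 separate bases. Of these, 12 fell at nt 3666 to 3679, at the end of a run of 41 uridines (nt 3644 to 3684), together with 5 of the 9 TTP-AA cDNAs. A run of at least that length was present in 0.0190% of 21045 annotated 3′UTRs. The remaining TTP cDNAs of Gas7 were 2 at nt 3498 to 3506 and 2 at nt 4347 to 4348.

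**Figure D5:**
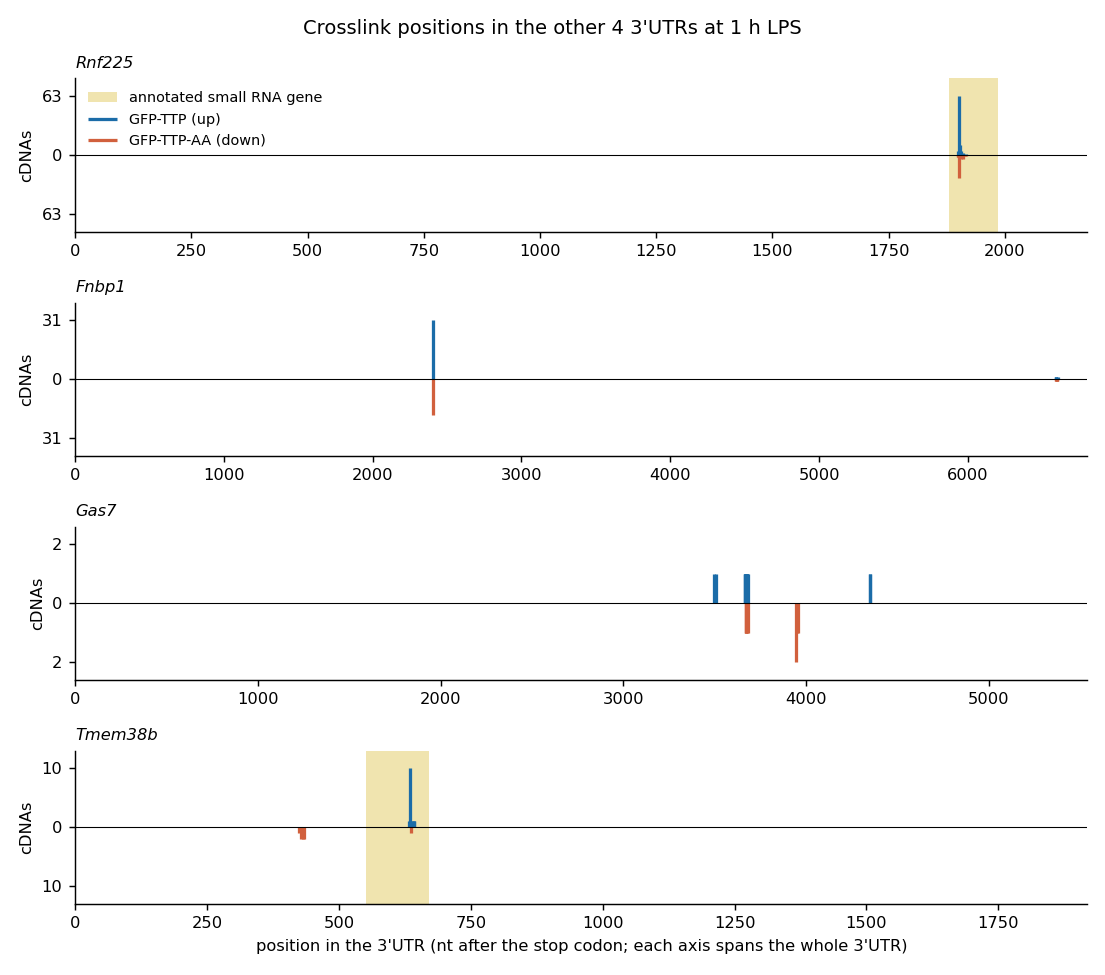
Lines give the cDNAs at each position of the Rnf225, Fnbp1, Gas7 and Tmem38b 3′UTRs at 1 h of LPS, GFP–TTP upward and GFP–TTP-AA downward, over the whole length of each 3′UTR in nt; yellow marks an annotated small RNA gene. The TTP cDNAs of Rnf225 and Tmem38b lie inside the yellow spans, whereas 9 of the 10 TTP-AA cDNAs of Tmem38b lie before it, at nt 425 to 434.

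None of the wild-type sites of the 5 genes had AUUUA within 20 nt. The pentamer lay wholly within 20 nt of 0 of 108 TTP sites at 1 h (0 to 3.43%), 0 of 48 at 0 h (0 to 7.41%) and 0 of 45 at 4 h (0 to 7.87%). Over all 3′UTR sites of the same lists the share reached 37.7% (1 h), 45.7% (0 h) and 42.1% (4 h). Within 50 nt, AUUUA lay near 1 of 7 TTP sites of Tmem38b at 1 h, 2 of 5 at 0 h and 1 of 4 at 4 h. It lay near no TTP site of the other members. At 50 nt the share over all 3′UTR sites was 50.9% (1 h), 57.9% (0 h) and 56.8% (4 h). Positions of 1 gene share their sequence, so these sites are not independent. The Lars2 3′UTR holds no AUUUA at all, which 65.2% of 21045 annotated 3′UTRs do and 74.5% of those of like length (0.7 to 1.5 times). Rnf225 holds 2 copies, Fnbp1 4, Gas7 3 and Tmem38b 5, against 8 in Tnf. Of these 14 copies, 2 had cDNAs within 20 nt, and every such cDNA was from TTP-AA. The Tmem38b copy at nt 426 to 430 had 9 TTP-AA cDNAs at 1 h, and the Gas7 copy at nt 3941 to 3945 had 3 at 0 h and 4 at 1 h. At both, the TTP lists had 0 cDNAs. These counts are not scaled to list size. The 3′UTR cDNAs numbered 93510 with TTP-AA and 9558 with TTP at 1 h, and 6008 and 4369 at 0 h. Counts this small cannot show a difference in share between the proteins. Over the 5 genes, 9 of 89 TTP-AA sites at 1 h had the pentamer (10.1%, 5.41 to 18.1), against 34.6% of all TTP-AA 3′UTR sites. The UGUGU pentamer lay within 20 nt of 25 of 70 TTP sites of Lars2 (35.7%, 25.5 to 47.4) and all 5 of Fnbp1 at 1 h, against 10.0% over all 3′UTRs, and of none in Rnf225, Gas7 or Tmem38b. Of the TTP-AA sites at 1 h, UGUGU lay near 19 of 56 in Lars2 (33.9%, 22.9 to 47.0) and near all 6 in Fnbp1, against 9.23%. By cDNAs the Lars2 share at 1 h was 19.2% with TTP and 18.4% with TTP-AA. The Fnbp1 3′UTR holds 47 copies of UGUGU and the Lars2 3′UTR 3. The motif is in 100% and 86.1% of 3′UTRs of like length. The Fnbp1 sites lay at nt 2404 and close together at nt 6590 to 6608. Only the RNA strand of the gene was searched for either motif, and overlapping copies were counted.

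The genes whose shares of the cDNAs of the 6 lists were most like those of Lars2, Rnf225 and Fnbp1 were found by cosine similarity among 610 genes with at least 50 exonic cDNAs. For Lars2 they were the secreted matricellular protein gene Ccn1 (0.988), the 5S rRNA gene n-R5s211 (0.970), the snoRNA Gm23927 (0.957), the rRNA gene Gm24601 (0.957) and Gm42418 of the chromosome 17 locus (0.956), whereas Tnf had 0.543. For Rnf225 they were the 5.8S rRNA gene n-R5-8s1 (0.976), the snRNA genes Gm23095 (0.975), Gm23523 (0.972) and Gm25698 (0.969), and Nckap5l (0.957). For Fnbp1 they were Gm43332 (0.999), the miRNA genes Gm24245 (0.997) and Gm25911 (0.991), and the 5S rRNA genes n-R5s88 (0.990) and n-R5s156 (0.988). Tnf had 0.435 with Rnf225 and 0.816 with Fnbp1. Gm42418 had 0.827 with Rnf225 and 0.554 with Fnbp1. Gm26917 had 0.884 with Lars2, 0.738 with Rnf225 and 0.708 with Fnbp1. Fnbp1 was thus more like Tnf than like either chromosome 17 transcript. Each of these is a description over 6 points, and all points come from the same lists. The 1 h points are those that chose the genes. Fnbp1 had no 3′UTR cDNAs at 0 h and 4 h. Its values therefore rest on the 1 h points, and nothing is read from them.

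Relatives of Lars2, Fnbp1, Gas7 and Tmem38b are given as background, and relatives of Rnf225 were not examined. Over the whole annotation, 4835 genes had a 3′UTR cDNA, against 21045 annotated 3′UTRs, and nothing is read from the counts of relatives. Of 19 other synthetases that act in mitochondria, 2 had any 3′UTR cDNA, Iars2 with 2 and Nars2 with 5, and the cytosolic Lars had 3. Of 18 other F-BAR genes, 5 had 3′UTR cDNAs and none leaned to TTP at 1 h. Fcho2, which helps to start clathrin-coated pits, had 4 TTP-AA cDNAs at 0 h and 2 TTP and 10 TTP-AA at 1 h, and Srgap2 had 4 TTP-AA cDNAs at 0 h and 6 at 1 h. Tmem38a, the other TRIC channel, had none. Fcho2, the only one of these relatives with the 10 cDNAs needed for the test at 1 h, was not among the 132 of 2065 genes (6.39%) called in either direction. Tnf had 53 cDNAs with TTP and 0 with TTP-AA at 0 h, 727 versus 1673 at 1 h, and 35 versus 77 at 4 h, so by cDNA number it had more with TTP-AA at 1 h and 4 h, where Lars2 and Rnf225 had fewer. As a share of the 3′UTR cDNAs, Tnf was larger with TTP at 1 h, with an odds ratio of 0.221, and larger with TTP-AA at 4 h, with an odds ratio of 2.08 (adjusted p 0.00102 by Fisher's exact test).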

How the data were processed

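The deposited files were 6 lists of crosslink positions with a signed score, the number of cDNAs, its sign giving the strand. Per the file headers and the study's methods, the authors removed PCR duplicates by random barcode, mapped reads to mm10 (GRCm38) with Bowtie, summed the libraries of a group (15 in all) and kept positions with a false discovery rate under 0.05 in iCount (100 permutations, flank of 15 nt). The 2 lists of 1 h carry an additional regionAsOne mark, so thresholds may differ between times. Versions are not given in the sources used here.

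Each position was placed on GENCODE M21 in the order 3′UTR, coding sequence, 5′UTR, non-coding exon, intron. Genes with at least 10 3′UTR cDNAs over a pair of lists were compared with all other 3′UTR cDNAs by two-sided Fisher's exact test, adjusted over all genes tested (Benjamini-Hochberg, called under an adjusted p of 0.05). Intervals of ratios are exact (Clopper-Pearson), those of shares Wilson and those of odds ratios normal on the log scale. Windows of 30 nt were read from spliced transcripts and not, as planned, from the genome, and matched without gaps to 6112 small RNA and chromosome 17 transcripts. Whole 3′UTRs were aligned to all transcripts with BLAST+ 2.17.0 (expected value up to 1e-06, plus strand). A copy of a small RNA aligned over at least 80 columns at 80% identity or more. Scripts ran in Python 3.11.15 with scipy 1.17.1, and the Fisher step was tested on simulated data. The genes and lists were chosen with earlier results of these data known. Named genes were the 5 members, up to 3 just under the threshold, the 5 most alike of members with at least 50 cDNAs, relatives with at least 10 cDNAs, Tnf and aligned non-coding genes. Iars2, Nars2 and Lars fell outside that rule and were named after their values were seen. The sequence of a Fnbp1 site and that of a copy of the Rnf225 stretch are not reported here.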

Additional observations from a re-analysis of the deposited data

How the results depend on the processing

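No paired analysis was possible because the lists pool all libraries of a group and carry no replicate, and for the same reason no library could be left out. The lean of the 5 genes to TTP at 1 h held for 2 when each site was counted once and for 3 without sites in annotated small RNA genes, the latter an alternative chosen after seeing the data. Counted by site, the 1 h ratio turned to 1.20 for Rnf225 and 1.20 for Fnbp1. Of 47 odds ratios of the genes under alternatives, 33 kept their direction and call, 10 lost the call and 4 reversed, all of Rnf225 between 0 h and 4 h. They were 0.530 (TTP) and 0.302 (TTP-AA) against all cDNAs of the list, and 0.665 and 0.309 without the chromosome 17 locus, because 3′UTR cDNAs were a smaller part of the 4 h lists. With sites counted once, the calls of Lars2 and Rnf225 at 0 h and 4 h were lost. Genes called between the proteins numbered 74 at 0 h, and 156, 32 and 31 with at least 5 cDNAs, at least 20 cDNAs and sites counted once; at 4 h they numbered 17, and 51, 10 and 7. At 1 h they numbered 132, and 1763 against all cDNAs of the list or 1644 without the locus. Between 0 h and 4 h TTP had 24, and 73 and 72 under those denominators, and TTP-AA had 16, and 116 and 116, with 34 at 5 cDNAs and 9 by sites. The share of the genes' cDNAs at small RNA sequence was 24.8%, and 44.3% at 18 nt and 85% identity, where 32.3% of all 3′UTR cDNAs also matched. The share of their sites with AUUUA was 3.41%, 4.55% with the motif within 50 nt, and 1.23% weighted by cDNAs. With at most 8 cDNAs in any list of 0 h and 4 h, Tmem38b, Fnbp1 and Gas7 stayed under the 10 needed for the test between the proteins there.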
